A study of Mus musculus with 2 samples.

Results

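Blood vessels of the developing mouse lacrimal gland were described here through 79 cells, 32 chosen as endothelial and 47 chosen as mural, of 628 cells kept in all. The glands came from wild-type CD1 mice, an outbred strain with no engineered allele, taken on embryonic day 16 (E16) or on postnatal day 4 (P4), when the gland is branching and when it is turning to secretion. The labels name no treatment for either stage. Each stage was 1 library of single cells from pooled, enzyme-digested glands, and how many animals went into a pool is not given in the sources. A difference between the stages is therefore a difference between these 2 libraries, with no replicate check, and no p-value is given. Kept cells had at least 200 detected genes and less than 50% of their UMIs (unique molecular identifiers, the counts of captured RNA molecules) from haemoglobin genes. An endothelial cell had at least 4 UMIs summed over Pecam1, Cdh5, Cldn5, Emcn and Egfl7, and a mural cell at least 4 summed over Rgs5, Cox4i2, Ndufa4l2 and Notch3. Both had at most 2 UMIs of the epithelial genes Epcam and Krt14, and a cell that met both rules went to the larger sum. There were 11 endothelial and 31 mural-rule cells among 234 kept cells at E16, and 21 and 16 among 394 at P4.

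Endothelial cells line every blood vessel, seal its wall through adherens and tight junctions, and answer the growth factor VEGF through the receptors Kdr and Flt1. Mural cells wrap that tube: smooth muscle cells, rich in contractile proteins, around arteries and veins, and pericytes, embedded in the basement membrane, around capillaries. In a secretory gland the capillary bed brings the water and the metabolites from which the secretion is made, and its endothelium is known for transport genes, such as the water channel Aqp1 and the lipid handling genes Gpihbp1, Cd36 and Fabp4.

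The short stretch of genome before a gene's start site holds part of the instructions for where it is read. Promoter sequences in the RefSeq table (build GRCm38.p6) were matched for 8 of the 20 genes that led the endothelial cells and for 13 of the 20 that led the mural-rule cells, both described further on. Shown first are the 250 bases before the start of 3 leading endothelial genes, the VEGF receptor gene Flt1, the retinoid-binding protein gene Rbp7 and Aqp1. Capitals mark AGGAAG on the strand shown, the core that factors of the ETS family (among them the endothelial factors Erg and Fli1) can bind.
Flt1 promoter, chr5:147726012-147726261, minus strand: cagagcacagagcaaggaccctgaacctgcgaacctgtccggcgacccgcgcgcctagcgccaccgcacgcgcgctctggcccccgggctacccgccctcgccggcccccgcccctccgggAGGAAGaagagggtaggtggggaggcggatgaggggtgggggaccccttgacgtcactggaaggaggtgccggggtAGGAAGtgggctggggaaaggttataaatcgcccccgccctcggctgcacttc
Rbp7 promoter, chr4:149454969-149455218, minus strand: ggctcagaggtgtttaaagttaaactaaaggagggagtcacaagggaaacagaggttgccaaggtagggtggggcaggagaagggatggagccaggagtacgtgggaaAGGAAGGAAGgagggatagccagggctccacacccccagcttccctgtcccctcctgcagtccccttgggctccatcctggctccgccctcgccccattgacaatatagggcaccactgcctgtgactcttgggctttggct
Aqp1 promoter, chr6:55336049-55336298, plus strand: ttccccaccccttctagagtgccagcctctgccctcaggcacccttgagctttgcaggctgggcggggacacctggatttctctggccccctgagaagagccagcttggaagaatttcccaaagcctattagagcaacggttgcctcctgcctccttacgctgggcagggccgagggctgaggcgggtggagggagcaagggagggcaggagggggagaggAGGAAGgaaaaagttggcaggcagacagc
In Flt1 the letters lay 129 to 124 and 53 to 48 bases before the start, the second of them near a TATAAA at 31 to 26. In Rbp7 a pair of matches overlapped, at 142 to 137 and 138 to 133, and in Aqp1 there was 1 match at 29 to 24. Searched on both strands, AGGAAG was in 6 of the 10 matched windows of leading endothelial genes (60%), in 6 of the 23 of leading mural-rule genes (26.1%) and in 29.5% of all 32851 windows in the table. Myl9, which encodes the regulatory light chain of smooth muscle myosin and led the mural-rule cells, is shown with the capitals marking a CArG box, the element bound by serum response factor in many contractile genes.
Myl9 promoter, chr2:156775214-156775463, plus strand: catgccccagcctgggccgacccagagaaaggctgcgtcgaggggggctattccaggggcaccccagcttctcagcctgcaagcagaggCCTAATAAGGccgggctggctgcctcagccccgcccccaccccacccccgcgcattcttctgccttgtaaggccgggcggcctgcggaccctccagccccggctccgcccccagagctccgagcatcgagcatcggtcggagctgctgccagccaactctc
The box lay 161 to 152 bases before the start of Myl9. It was in 1 of the 21 windows of the smooth muscle list (4.76%), in none of the 10 endothelial windows, and in 1.47% of all windows. A match is a run of letters in this window, not a measured binding site. Starts here are those of the RefSeq table. For Rbp7, Aqp1 and Myl9 they differ from the GENCODE starts, the source of the gene coordinates given further on. The Aqp1 window ended at 55336298, before the GENCODE start at 55336432.

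Depth differed between the groups, which bears on a rule that asks for a number of UMIs. At E16 the median cell held 6938 UMIs among endothelial, 6085 among mural-rule and 5470 among all other kept cells, and at P4 3303, 3914.5 and 3683. Single cells ranged from 2547 to 20515 UMIs at E16 and from 1024 to 8481 at P4 in the endothelial group, and from 2101 to 12768 and from 715 to 8493 in the mural-rule group. No barcode occurred in both libraries. No doublet caller was run. At E16 3 cells and at P4 1 cell met both rules. An E16 endothelial cell with 36 UMIs of the endothelial selecting genes also had 31 of the mural ones, the most in its group. It held 16366 UMIs of which 1535 were haemoglobin, and supplied every Rgs5, Cox4i2 and Notch3 UMI of the E16 endothelial group.

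RNA of other cell types was measured in both groups. Haemoglobin genes summed to 2147 and 2122 CPM (UMIs per 1000000 UMIs of the group) in the mural-rule cells of E16 and P4 and to 2029 and 2092 CPM in other cells. In endothelial cells they summed to 2338 CPM at P4 and 16032 CPM at E16, or 1996 CPM without the cell that held 1535 of the 1716 UMIs. Genes of lacrimal secretion, at 104979 CPM in the other P4 cells, were at 863 CPM in P4 endothelial cells (a UMI in 19 of 21) and 1143 in P4 mural-rule cells (15 of 16), with the secretory genes Ltf, Lpo and Aqp5 at 0 in both groups. Myeloid markers summed to between 5.02 and 104 CPM in the vascular groups, against 718 and 3328 in other cells, and Csf1r, Adgre1 and Mrc1 were at 0 in each of the 4 vascular groups. Epithelial markers summed to between 9.34 and 119 CPM, against 1546 and 2731 in other cells. The part of this background in the results was not tested.

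Against the cells' other RNA, the endothelial label held for most of the cells and the mural label for only some of them. The 2 P4 endothelial cells with the lowest admitted sum (4 UMIs) held 1 and 2 UMIs of 11 endothelial markers that the rule did not use, and no collagen UMI. The E16 endothelial cell with that sum held Emcn alone of the 5 selecting genes, 2 UMIs of the 11 markers among its 11043, and 68 UMIs of Col1a1, Dcn and Lum. Another E16 endothelial cell had 91 of those UMIs beside 29 of the 11 markers. The fibroblast list summed to 923 CPM in P4 endothelial cells and to 4475 CPM in those of E16, where 55.1% of it was in 1 cell. In the mural-rule cells the same list stood at 17182 CPM at E16 and 29575 CPM at P4, above the 10475 and 23802 CPM of all other cells. Collagen-high cells, meaning cells with at least 10 UMIs summed over Col1a1, Dcn and Lum (a fibrillar collagen and 2 small proteoglycans of fibroblasts), were 23 of the 31 E16 and 12 of the 16 P4 mural-rule cells, and 2 of the 11 E16 and none of the 21 P4 endothelial cells. The 47 cells are therefore called mural-rule cells here, and their main results are given with and without the collagen-high ones.

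**Figure D1:**
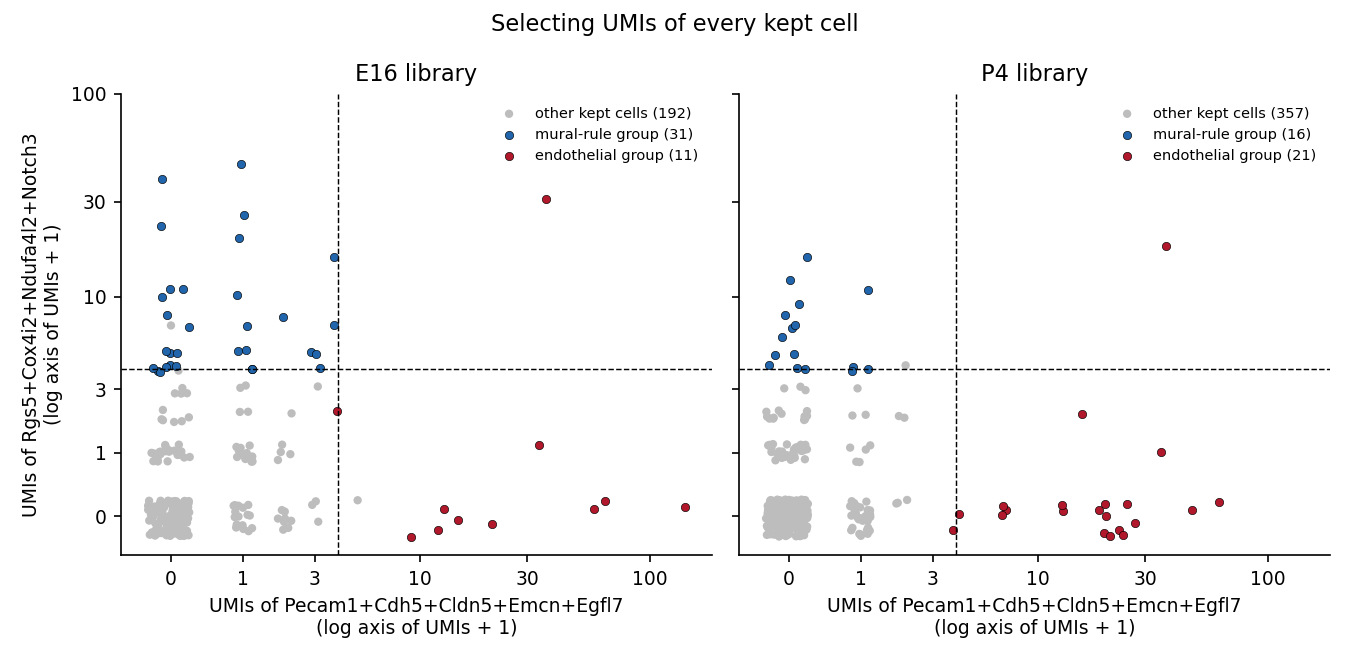
Each point is 1 kept cell, placed by its summed UMIs of the 5 endothelial (x) and the 4 mural (y) selecting genes, on log axes with 1 added and slight jitter, E16 left and P4 right. Dashed lines mark the minimum of 4 UMIs. Only 4 cells met both rules, and grey points past a line are cells over the Epcam and Krt14 limit.

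The genes that chose the cells are a description and no result. In E16 endothelial cells Egfl7, a secreted regulator of vessel tube formation, had 132 UMIs in 10 of 11 cells, Cldn5 (tight junction) 89 in 8, Cdh5 (VE-cadherin, adherens junction) 72 in 8, Pecam1 (junctional adhesion) 62 in 10 and Emcn (a sialomucin) 53 in 9. In P4 endothelial cells Egfl7 had 117 UMIs in 21 of 21 cells, Cldn5 180 in 17, Pecam1 63 in 18, Emcn 58 in 14 and Cdh5 34 in 16. No single gene of the 5 thus stood in for the sum, and Cldn5 reached 2158 CPM at P4 against 831 CPM at E16. Among mural-rule cells, Ndufa4l2, a mitochondrial protein of pericytes and of low oxygen, had 216 UMIs in 29 of 31 E16 cells and 68 in 16 of 16 P4 cells. Cox4i2, another mitochondrial subunit, had 49 UMIs in 14 E16 cells and 26 in 10 P4 cells. Rgs5, a regulator of G protein signalling typical of pericytes, had 40 UMIs in 11 E16 cells and 13 in 4 P4 cells, and Notch3, the arterial mural Notch receptor, 15 in 11 and 3 in 3. Ndufa4l2 had a UMI in 20.8% of other E16 cells and 8.12% of other P4 cells. An endothelial sum of 3 was held by 7 E16 cells, of which 3 had been placed as mural-rule cells by their larger mural sum, and by no P4 cell. An endothelial sum of 4 was held by 3 E16 cells, of which 2 were mural-rule cells and 1 endothelial, and by 2 P4 cells, both endothelial. A mural sum of 3 was held by 6 E16 and 4 P4 cells, and a mural sum of 4 by 9 and 6. On both sides of the mural threshold at E16 the median cell held 1 UMI of 8 other pericyte genes, with 52.5 collagen UMIs outside it and 62 inside. At P4 the median cell held 2 UMIs of these genes outside it (1 to 5) and 1 inside (0 to 1), with 84.5 and 65.5 collagen UMIs.

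Endothelial cells made up 4.70% of kept cells at E16 (95% Clopper-Pearson interval 2.37 to 8.26) and 5.33% at P4 (3.33 to 8.03). Mural-rule cells made up 13.2% (9.18 to 18.3) and 4.06% (2.34 to 6.51). The intervals cover counting error only. After each cell was thinned to 1331 UMIs (219 E16 and 354 P4 cells were that deep), 2.28% of E16 and 3.67% of P4 cells met the endothelial rule and 3.65% and 0.847% the mural rule. The mural-rule share was thus higher in the E16 library both before and after thinning, and 15 E16 and 40 P4 cells were too shallow to enter. Digestion and capture can favour a cell type, and fewer cells of a type in the tissue cannot be told apart from fewer recovered.

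The mural-rule cells fell into patterns that were defined after their values had been seen and are a description. Collagen-high cells with fewer than 10 UMIs of the contractile genes Acta2 and Tagln numbered 16 of 31 at E16 and 11 of 16 at P4. Cells with at least 10 contractile UMIs, or actin-high cells, numbered 12 and 3, of which 7 and 1 were also collagen-high. A remainder low in both numbered 3 and 2. At E16 the collagen-high, actin-low cells held no Rgs5 UMI, 108 CPM of Cox4i2 and 875 CPM of Ndufa4l2. Actin-high cells held 544 CPM of Rgs5, 412 of Cox4i2 and 1204 of Ndufa4l2, and the cells low in both 374, 588 and 2032. Of the 11 E16 cells with a Rgs5 UMI, 7 were high in both gene sets, which is each of the cells of that kind, 1 was actin-high only and 3 were low in both. The collagen-high, actin-low cells thus entered mainly through Ndufa4l2. It was the only selecting gene with a UMI in 10 E16 cells, of which 9 were collagen-high, and in 5 P4 cells, all 5 collagen-high. Of the cells with a selecting sum of 4 or 5, 15 of 16 at E16 and 8 of 8 at P4 were collagen-high, and of those with a sum above 10, 2 of 8 and 1 of 3.

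The patterns were defined by contractile and matrix genes, so the separation in Acta2 is given by construction. Acta2 (smooth muscle actin) stood at 8117 CPM in E16 actin-high cells, 142 in collagen-high, actin-low cells and 160 in cells low in both, and at P4 at 8416, 380 and 0 CPM. Myl9 followed with 5296, 625 and 1390 CPM at E16, and Cnn1 (calponin, which restrains contraction) with 693, 0 and 0. Cdkn1c, an imprinted inhibitor of the cell cycle, ran the other way, with 12206 CPM in collagen-high, actin-low cells at E16 against 561 and 481. Of 2 pericyte genes the few cells low in both had the highest summed levels, carried at E16 mainly by 1 cell for each gene. Kcnj8, a subunit of the potassium channel by which pericytes sense energy state, had 6 UMIs in these 3 E16 cells (321 CPM), of which 5 lay in 1 cell, 3 in the 12 actin-high cells (49.5 CPM) and 6 in the 16 collagen-high, actin-low cells, and at P4 it was at 1842 against 658 and 20.0 CPM. Gucy1b3, a subunit of the nitric oxide receptor, was at 1390 CPM against 198 and 108 at E16, where 23 of the 26 UMIs lay in 1 cell, and it was at 415 CPM without that cell. The P4 cells low in both were 2 cells with 2172 UMIs in all.

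**Figure D2:**
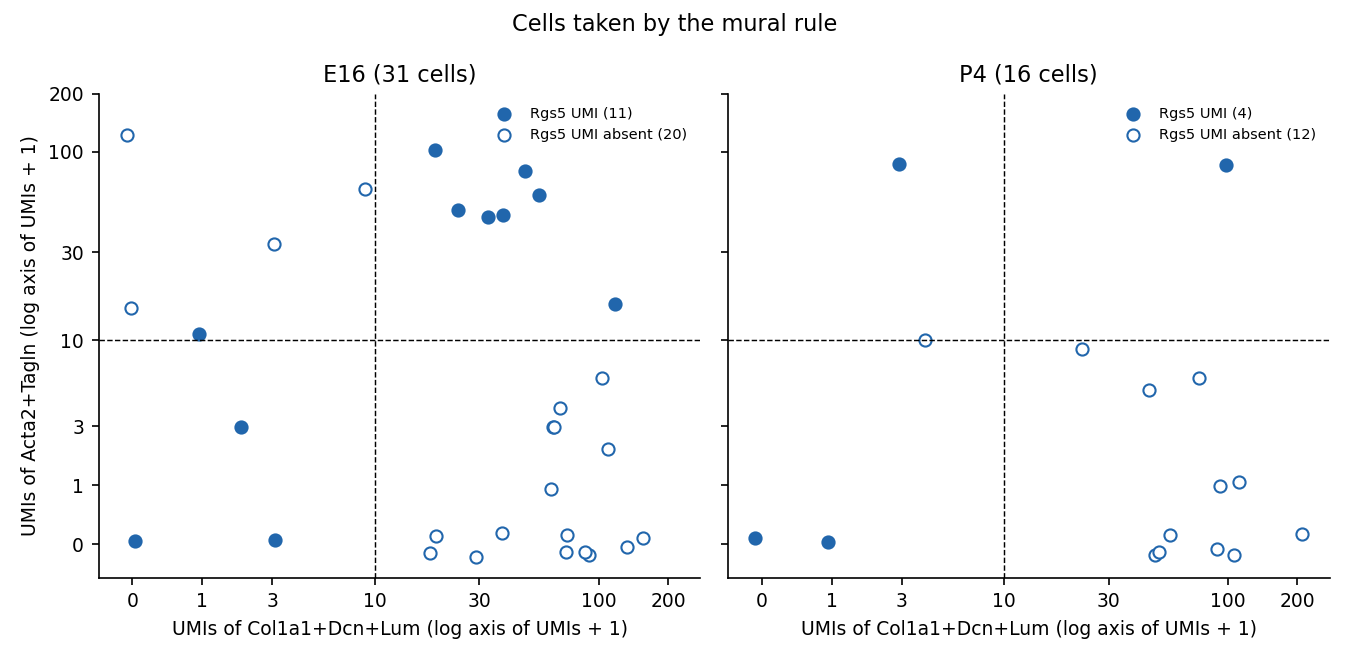
Each point is 1 mural-rule cell, placed by its summed UMIs of Col1a1, Dcn and Lum (x) and of Acta2 and Tagln (y), on log axes with 1 added and slight jitter, E16 left and P4 right. Filled points have a Rgs5 UMI and dashed lines mark 10 UMIs. On or right of the vertical line lie 23 of 31 E16 and 12 of 16 P4 cells, and no filled point is in the lower right part.

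Against all other kept cells, the endothelial cells carried a broad and steep set of vessel genes in both libraries. A gene counts as measured where the mean level of the groups compared is worth at least 10 UMIs in the group with fewer UMIs, and a difference is counted from 2-fold on. Of 1931 measured genes at E16, 286 were at least 2-fold higher in endothelial cells (14.8%) and 208 lower (10.8%). Of 1485 at P4, 306 were higher (20.6%) and 133 lower (8.96%). Since the rule picked the cells by their own RNA, these counts describe the cells and test nothing. Fewer UMIs were available at P4 (83422 in endothelial cells) than at E16 (107037). The median log2 ratio over all measured genes was 0.28 at P4 and -0.07 at E16. At P4 the secretory transcripts of other cells took up part of their total, and their part in this median was not tested.

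Gpihbp1, the anchor that holds lipoprotein lipase on capillary endothelium (chromosome 15, 75596628 to 75599481, plus strand), led the genes that the rule did not use. It had 80 UMIs in 8 of 11 E16 endothelial cells (747 CPM) and 76 in 12 of 21 P4 cells (911 CPM), with 1 UMI among the 192 other E16 cells and 1 among the 357 other P4 cells. The ratios were 919 (160 to 36759) and 1600 (279 to 64002), whose intervals (95%, exact conditional, counting error only) are wide because of that 1 UMI. Fabp4, a fatty acid carrier, had the most UMIs of these genes, 336 at E16 and 299 at P4, against 59 and 30 in other cells, which gave 65.4-fold (49.5 to 87.8) and 209.8-fold (144 to 316). Adipocytes also make Fabp4, and their markers Adipoq, Plin1, Plin4, Cidec and Cfd were at 0 in the endothelial cells of both libraries. Cells of the gland outside the vessels thus held little of either gene.

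The junctional adhesion gene Esam had 82 UMIs at E16 and 75 at P4, 105-fold (52.5 to 237) and 175-fold (87.6 to 398) the level in other cells. Ecscr, a surface protein of endothelial signalling, had 53 and 92 UMIs, 76.1-fold (36.0 to 185) and 484-fold (183 to 1814), and 50.3-fold at E16 without 1 cell. Plvap, which spans the diaphragms of fenestrae and caveolae, had 46 and 126 UMIs, 44.1-fold (22.96 to 91.4) and 110-fold (71.0 to 179). These surface genes were in most cells of both groups, Plvap in 8 of 11 and 16 of 21 and Ecscr in 10 of 11 and 20 of 21. Flt1 (chromosome 5, 147561604 to 147726011, minus strand) was 146-fold (46.2 to 737) and 132-fold (45.4 to 520) higher, with 38 and 25 UMIs against 3 and 4. Aqp1 (chromosome 6, 55336432 to 55348555, plus strand) was 56.4-fold (29.2 to 120) and 284-fold (105 to 1080) higher. Rbp7 had 26 UMIs against 2 at E16 and 28 against 0 at P4, at least 196-fold higher, where a 0 is replaced by 3 counts over the group as its floor. Each of the 3 promoters printed above thus belongs to a gene that other cells of the gland held at a few UMIs or, for Aqp1, at a low level.

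Transcription factors that specify endothelium were among the leaders too. Sox17, a driver of arterial identity, had 81 UMIs at E16 and 32 at P4 against 1 and 1 in other cells, but 75.3% of the E16 UMIs lay in 1 cell and 20 in the others. Tcf15, a factor of capillary lipid uptake, had 43 against 5, 98.8-fold (39.2 to 320), and at P4 31 against 1. Gja4, the arterial connexin 37, had 62 against 0 at E16, at least 237-fold higher, with 67.7% of it in 1 cell (at least 92.6-fold without it), and 32 against 3 at P4, 225-fold (70.2 to 1146). Aplnr, the apelin receptor of veins and capillaries, had 21 against 0, at least 80.4-fold higher, and 41 against 3, 288-fold (91.8 to 1450). The remaining leaders, Cd93, Icam2, Gimap4, Cav1, Sdpr, Ctla2a, Tm4sf1 and Gng11, were at least 12.5-fold higher at E16 and 14.9-fold at P4, the lowest values being those of Gng11, a G protein subunit.

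**Figure D3:**
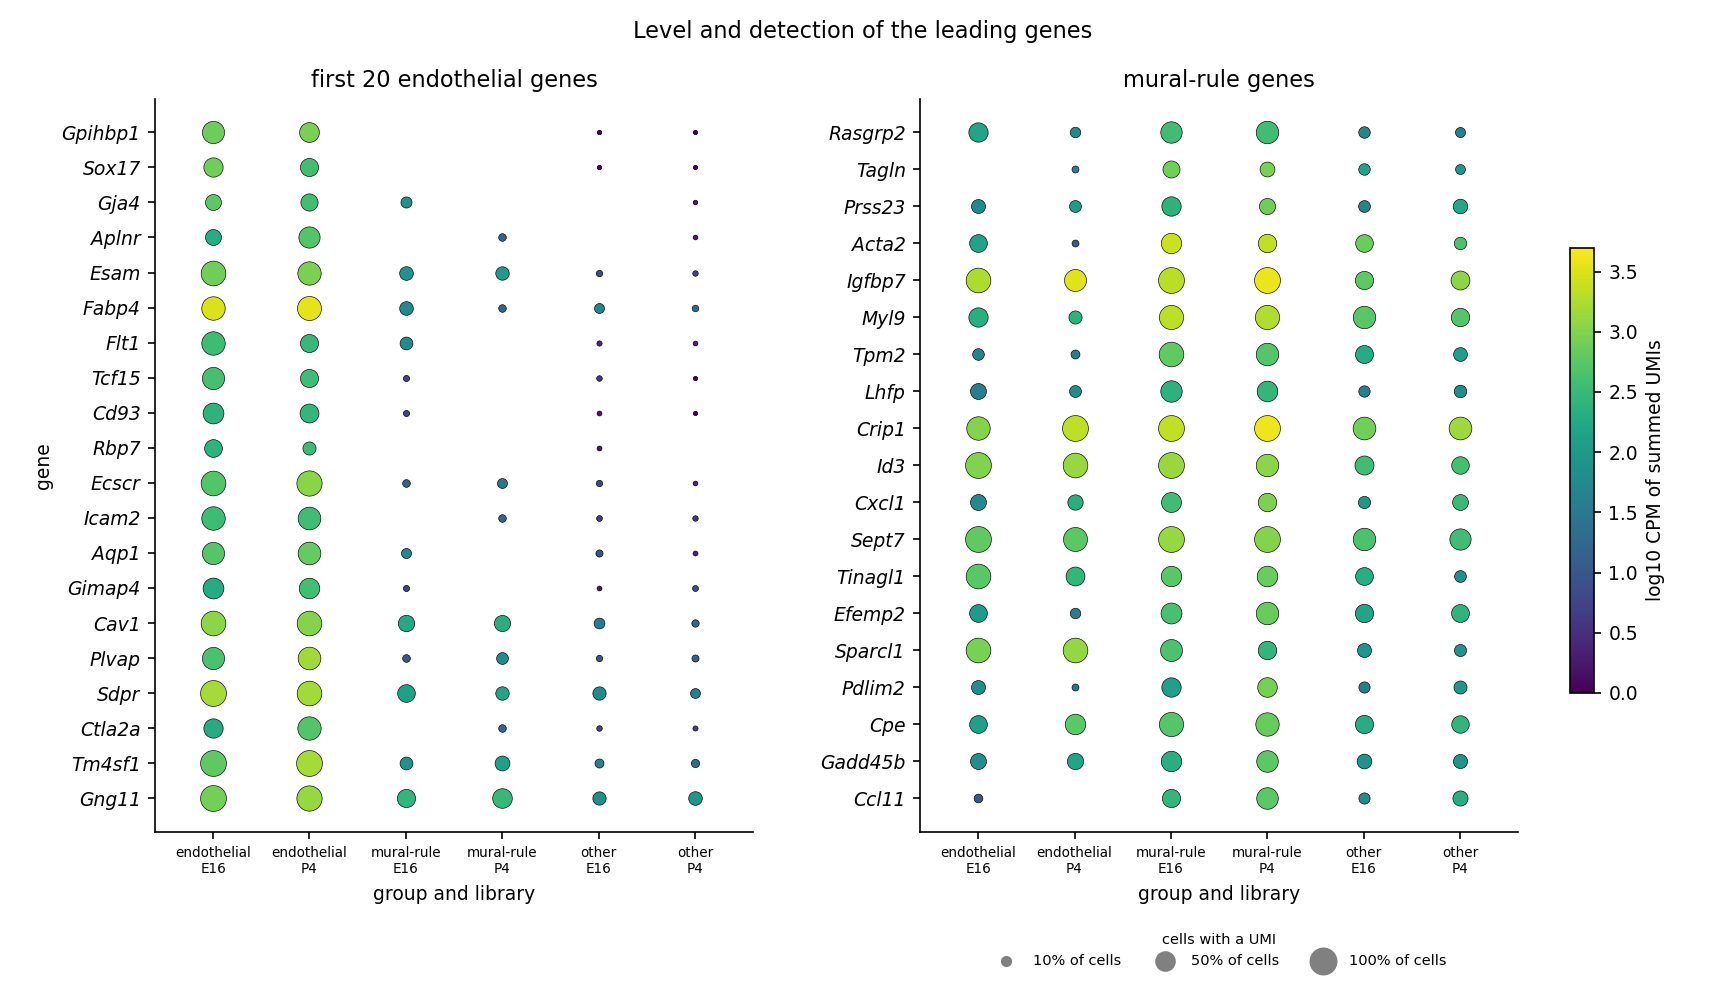
Rows are the genes that led the endothelial (left) and the mural-rule cells (right) over all other cells, columns are the 3 cell groups in each library, dot colour is log10 of the CPM of the summed UMIs, and dot size is the percentage of cells with a UMI, with no dot at 0. Most endothelial leaders have small, dark dots or none outside the endothelial columns, while the mural-rule leaders are also present in other cells. Gng11 is drawn at left only.

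Known endothelial genes were read as lists, where a list's count stands beside the share of all measured genes given above. Of 20 endothelial receptors (for VEGF, angiopoietins, apelin and other vessel signals), 6 were measured at each stage and 6 of 6 were higher both times, with a median log2 ratio of 5.09 at E16 and 5.77 at P4. Kdr, the main VEGF receptor, had 27 UMIs against 2 at E16, and Tie1, an orphan receptor of the angiopoietin system, 26 against 2 at P4. Eng, a TGF-beta co-receptor, was 14.5-fold and 22.6-fold higher, and Nrp1, a VEGF and semaphorin co-receptor that other cells also make, 2.19-fold and 3.09-fold. Junction and surface genes were higher in 9 of 9 at both stages, with medians of 5.46 and 6.54. Of the transcription factors, 7 of 8 were higher at E16 and 6 of 7 at P4, with medians of 3.91 and 4.75. Klf2, which responds to blood flow, was 2.63-fold and 3.06-fold higher, and the member short of 2-fold was the related Klf4, at 1.495-fold and 1.42-fold. Most receptors of the list were below the measuring minimum in this number of cells.

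Vessel-bed genes came with fewer measured members. Arterial genes were higher in 3 of 3 at both stages, with medians of 7.89 and 7.81. Venous genes were higher in 1 of 1 at E16 and 2 of 2 at P4, where Vwf, the platelet-binding von Willebrand factor, had 81 UMIs against 4 in other cells (426-fold). Of these 81 UMIs 63% lay in 1 cell, and without it the ratio was 168-fold (59.1 to 655). Capillary and fatty acid uptake genes were higher in 6 of 7 at E16 (median 5.82) and in 8 of 10 at P4 (median 3.34). The 2 lower ones at P4 were Lpl (0.101-fold), the lipase that other cells make and Gpihbp1 holds, and Ly6a (0.0886-fold), a surface marker of several cell types. Cd36, a fatty acid translocase, was 25.3-fold and 15.2-fold higher, and 15.8-fold at E16 without 1 cell that held 45.5% of its UMIs. No lymphatic gene of the list was measured, and 1 P4 cell held 13 UMIs of Prox1, Lyve1 and Flt4, the fate factor, hyaluronan receptor and VEGF-C receptor of lymphatic endothelium. Caveolae genes, which build the membrane pits of endothelium, were higher in 6 of 7 at E16 and 6 of 6 at P4, with medians of 2.81 and 3.98.

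Basement membrane genes were higher in 8 of 10 measured at E16 (median 2.29) and in 4 of 7 at P4 (median 1.58). The collagen IV chains Col4a1 and Col4a2 were 8.19-fold and 9.31-fold higher at E16 and 5.36-fold and 4.82-fold at P4, the last of which was 2.73-fold without 1 cell with 44.4% of the UMIs. The median of the vessel ligand list at E16, 5.21 over 6 measured members, turned to -0.16 without the deepest cell of each group, and Angpt2, the destabilizing ligand of Tek, had 31 UMIs at E16 that all lay in 1 cell. Among lists not particular to vessels, glycolysis and hypoxia genes were lower in 4 of 9 at E16 and higher in none, with a median of -0.95, and lower in 1 of 8 at P4 and higher in none, with a median of 0.33. Cell cycle genes were higher in 1 of 18 at E16, a smaller share than that of all measured genes (14.8%), with a median of 0.20. At P4 2 of 11 were higher, against 20.6% of all measured genes, with a median of 0.61. Smooth muscle genes were lower in 3 of 8 at E16 and in 2 of 7 at P4, where 2 were higher.

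Against all other cells, mural-rule cells led in contractile and pericyte genes by smaller ratios. Of 3347 measured genes at E16, 319 were at least 2-fold higher (9.53%) and 209 lower (6.24%), and of 1170 at P4, 176 were higher (15%) and 62 lower (5.3%). Without the collagen-high cells, which left 8 cells at E16 and 4 at P4 and fewer genes measured, 108 and 41 were higher. Rasgrp2, an activator of the small G protein Rap1 (chromosome 19, 6399340 to 6415216), led the genes that the rule did not use, with 74 UMIs at E16 and 25 at P4 against 66 and 71 in other cells, 6.92-fold (4.90 to 9.79) and 9.17-fold (5.57 to 14.7). Without the collagen-high cells it was 19.5-fold and 33.4-fold higher. In the E16 patterns it stood at 802 CPM in cells low in both gene pairs and 594 in actin-high cells, against 192 in collagen-high, actin-low cells. Without the cell with the most Rasgrp2 UMIs the first and second of these were 578 and 272 CPM. The E16 level of Rasgrp2 was thus lowest in the pattern with the most cells.

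Tagln (transgelin, an actin-binding protein) was 5.35-fold (4.29 to 6.66) and 9.63-fold (7.0 to 13.1) higher than in other cells, Acta2 3.59-fold (3.21 to 4.0) and 4.81-fold (4.0 to 5.74), and Myl9, whose promoter is shown above, 3.92-fold (3.46 to 4.43) and 3.53-fold (2.90 to 4.26). Without the collagen-high cells these became 10.1-fold and 27.7-fold for Tagln, 6.16-fold and 18.6-fold for Acta2, and 6.10-fold and 13.0-fold for Myl9. At P4, where 3 cells were actin-high, 1 cell held 56.9% of the Tagln UMIs and another 45.6% of Acta2 and 41.9% of Myl9, and without the cell with the most UMIs the P4 ratios were 4.75-fold, 2.75-fold and 2.16-fold. At E16 the contractile genes thus stood further from other cells in the collagen-low remainder, and at P4 67 of that remainder's 75 Acta2 UMIs were in 1 cell. Igfbp7, a secreted vessel-wall protein, was 3.46-fold and 3.35-fold higher with all cells and 4.66-fold and 5.15-fold without the collagen-high ones, and 1.87-fold at E16 when other cells were limited to those with at most 2 UMIs of Epcam and Krt14. Genes whose lead lost 2-fold without the collagen-high cells in 1 library were the chemokine gene Cxcl1 (1.76-fold at E16), the peptidase gene Cpe (1.51-fold at E16), and Prss23 and Pdlim2 (1.35-fold and 1.21-fold at P4). Efemp2, a protein of elastic fibre assembly that was 2.74-fold higher at E16 with all cells, was 0.468-fold without the collagen-high ones. Of the P4 UMIs of Prss23, Pdlim2 and Tinagl1, 80.8%, 78.9% and 64.6% lay in 1 cell.

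Pericyte genes that the rule did not use were higher in 5 of 5 measured at E16 (median log2 ratio 1.74) and in 4 of 4 at P4 (median 1.53). At E16 these were Gucy1b3 (10.5-fold, or 6.11-fold without 1 cell that held 23 of its 51 UMIs) and Gucy1a3 (3.35-fold), the nitric oxide receptor subunits, Vtn (vitronectin, 6.90-fold), Cygb (cytoglobin, 3.22-fold) and the transcription factor Ebf1 (2.32-fold). At P4 they were P2ry14 (a UDP-sugar receptor, 5.47-fold), Steap4 (a metalloreductase, 3.69-fold), Ebf1 (2.27-fold) and Cygb (2.0-fold). Without the collagen-high cells 4 of 4 measured at E16 were higher (median 2.42), and none was measured at P4. Gucy1b3 was at 31.1-fold there at E16, a value that includes the 1 cell with 23 UMIs. The P4 lead in pericyte genes could thus not be read apart from the collagen-high cells, which were 12 of the 16, because the remaining cells held few UMIs. The 8 pericyte genes used at the threshold summed to 280 CPM in P4 collagen-high, actin-low cells. They summed to 1052 CPM in P4 actin-high cells and to 5525 CPM (12 UMIs) in the 2 P4 cells low in both. Of the measured pericyte genes Cygb had a UMI in 185 of all 628 kept cells. The defining pericyte receptor Pdgfrb had 14 UMIs in the 31 E16 cells and 6 in the 16 P4 cells, too few to be measured, and Kcnj8 had 15 UMIs in 8 cells and 15 in 5. Smooth muscle genes were higher in 11 of 14 at E16 and 8 of 9 at P4, with medians of 1.79 and 1.82, and none was lower. Cnn1 at 37.0-fold, Actg2 (enteric actin) at 11.96-fold, Myh11 (smooth muscle myosin heavy chain) at 9.77-fold and Mylk (its kinase) at 6.77-fold stood out at E16. The smooth muscle median became 2.61 at E16 and 3.96 at P4 without the collagen-high cells. The fibroblast list, 1 of 8 higher at E16 and none of 9 at P4, had medians of 0.70 and 0.26 over the whole mural-rule group.

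Set against each other, the endothelial and the mural-rule cells differed by transport and junction genes on the endothelial side and by contractile and matrix genes on the other. Of 2008 measured genes at E16, 269 were at least 2-fold higher in endothelial cells (13.4%) and 333 in mural-rule cells (16.6%), and of 1285 at P4, 235 (18.3%) and 207 (16.1%). Fabp4 had 336 UMIs in E16 endothelial cells and 11 in E16 mural-rule cells, 56.9-fold (31.4 to 115), and 299 and 1 at P4. Gpihbp1 had 0 UMIs in mural-rule cells of both libraries, which made it at least 49.7-fold and 20.5-fold higher in endothelial cells. Rgcc, a cell cycle regulator of capillary endothelium, was 36.8-fold (13.8 to 138) and 18.9-fold (7.87 to 59.3) higher, and Cd34, a sialomucin also made by fibroblasts, 15.1-fold (7.54 to 34.3) and 14.8-fold (6.59 to 41.2). The endothelial genes Ecscr, Plvap, Tspan13, Sox17, Tcf15 and Gimap4 completed the first 10 on this side. Without the collagen-high mural-rule cells, which left 4 cells at P4, Tspan13 and Gimap4 were at 1.88-fold and 1.14-fold there. Few UMIs or the floor limit these ratios. Sox17 and Tcf15 had 0 UMIs in all 16 P4 mural-rule cells. Their ratios there, at least 1.14-fold and at least 1.10-fold, were set by the floor of the 4 cells. They are lower bounds and do not show similar levels in the compared groups. At P4 Cd34 was 9.49-fold without 1 cell with 40.9% of its UMIs.

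On the mural side, Acta2 had 512 UMIs at E16 against 15 in endothelial cells, 18.3-fold (11.0 to 33.0), and 147 against 1 at P4. Tagln had 156 against 0, at least 27.9-fold, and 58 against 3 at P4, 23.9-fold, or 11.8-fold without 1 cell. Myl9 was 9.85-fold (6.48 to 15.7) and 7.68-fold (4.76 to 13.0) higher, the latter 4.69-fold without 1 cell, and Gsn, an actin-severing protein common in fibroblasts, 8.05-fold (4.86 to 14.3) and 13.9-fold (8.22 to 25.5). The chemokine gene Ccl11 had 55 against 1 and 38 against 0 UMIs. Col1a1 was 5.43-fold (4.22 to 7.11) and 46.6-fold (24.3 to 103) higher, but at E16 68.2% of the endothelial Col1a1 UMIs were in 1 cell. Without the collagen-high mural-rule cells Col1a1 turned at E16, to 2.36-fold higher in the endothelial cells. Col1a1 was among the genes by which those cells were set apart, so its fall is given by construction. The 2 collagen-high E16 endothelial cells were kept in this ratio. Smooth muscle genes were lower in endothelial cells in 9 of 12 measured at E16 and 6 of 9 at P4, with medians of -2.56 and -1.26, and endothelial receptors were higher in 6 of 7 and 5 of 6. Cell cycle genes were higher in endothelial cells in 3 of 18 at E16 (1 was lower) and in 6 of 7 at P4, with medians of 0.36 and 2.42. Without the collagen-high mural-rule cells none of them was measured at P4. The housekeeping relatives of the mural selecting genes, Cox4i1 and Ndufa4, stayed within 2-fold in each of these comparisons.

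Endothelial cells divided into patterns of their own, again named after their values were seen and by genes only. Cells with at least 5 UMIs over Gpihbp1, Rgcc and Aplnr and fewer than 5 over the elastic fibre genes Eln, Fbln2 and Fbln5, called Gpihbp1/Rgcc/Aplnr-high, numbered 7 of 11 at E16 and 7 of 21 at P4. The reverse, called elastin-high, numbered 2 of 11 and 11 of 21. Both gene sets were at 5 or more in 0 and 2 cells, and neither in 2 and 1. At P4 the elastin-high cells held 7782 CPM of Eln, 3381 of Fbln2 (fibulin 2) and 2611 of Fbln5 (fibulin 5), against 111, 83.0 and 0 in Gpihbp1/Rgcc/Aplnr-high cells. In turn, Gpihbp1/Rgcc/Aplnr-high cells held 3069 CPM of Rgcc and 1825 of Gpihbp1, against 0 and 49.7. These genes defined the patterns, so their separation is given by construction.

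Genes outside that definition also differed between the patterns. At P4 Vwf stood at 1989 CPM in elastin-high and 27.7 in Gpihbp1/Rgcc/Aplnr-high cells, with a UMI in 9 of 11 and 1 of 7 cells, and at E16 at 1263 and 0 CPM in 2 of 2 and 0 of 7 cells. Of the P4 Vwf UMIs 51 lay in 1 elastin-high cell, without which the level was 820 CPM. Klf2 was at 3282 against 1217 CPM at P4 and 1608 against 805 at E16, where 1 of the 2 elastin-high cells held all 14 UMIs. Mgp, an inhibitor of calcification made in large vessels, was at 796 against 0 CPM at P4, and Ackr1, the chemokine carrier of veins, at 274 against 0. Genes known from large arteries (Mgp) and from veins (Ackr1) thus lay on the elastin-high side alike. The other side was higher at P4 in Col4a1 (1327 against 99.5 CPM), Igfbp7 (6525 against 298) and Cd36 (525 against 49.7), and less so in Plvap (1936 against 1144). Fabp4 was at 3733 against 2834 CPM, but 1 cell held 105 of the 135 UMIs behind the first value, which was 1005 CPM without it. At E16 Col4a1 was at 1680 against 230 CPM and Fabp4 at 3692 against 804, its 7 elastin-high UMIs in 1 cell. The 2 elastin-high E16 cells held 8707 UMIs in all, against 84501 in the 7 others, while at P4 the totals were 40219 and 36166.

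**Figure D4:**
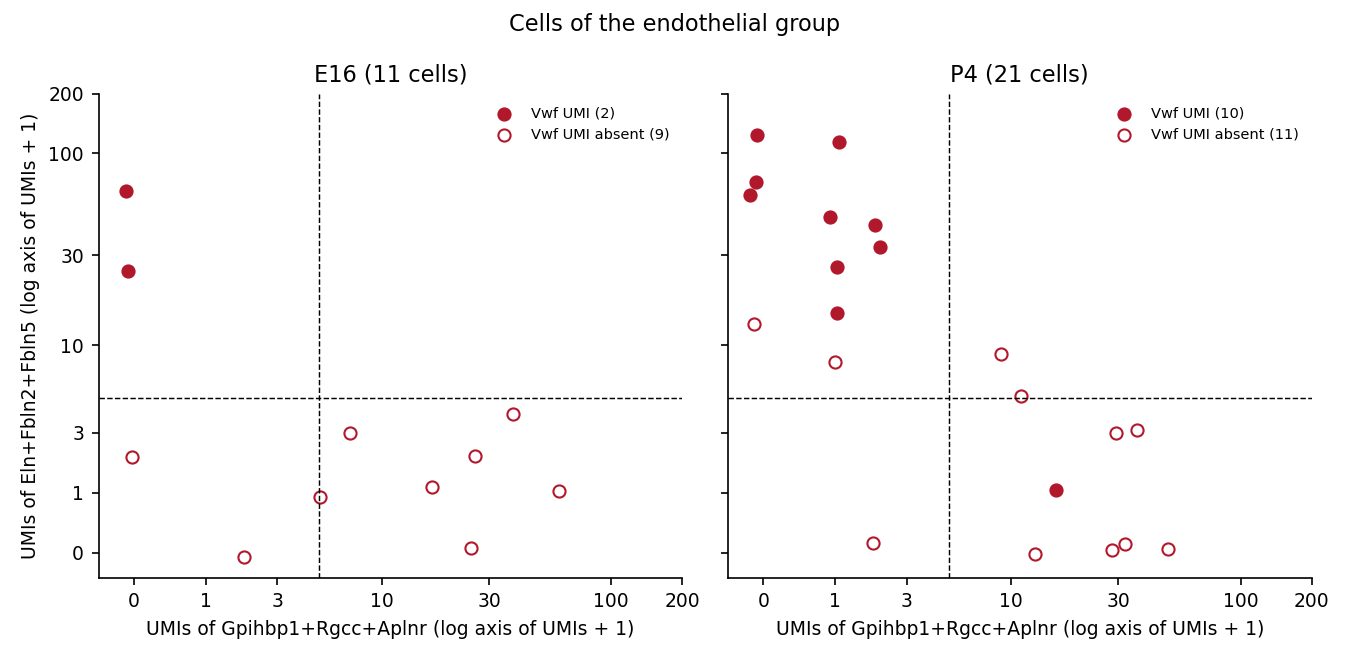
Each point is 1 endothelial cell, placed by its summed UMIs of Gpihbp1, Rgcc and Aplnr (x) and of Eln, Fbln2 and Fbln5 (y), on log axes with 1 added and slight jitter, E16 left and P4 right. Filled points have a Vwf UMI and dashed lines mark 5 UMIs. Of 21 P4 cells 11 are in the upper left part and 7 in the lower right, and of 11 E16 cells 2 and 7.

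Between the stages, endothelial cells of P4 held more RNA of the elastic fibre genes Eln, Fbln2 and Fbln5, of 3 of 3 venous and of 4 of 6 leukocyte adhesion genes measured, and less of 7 of 8 imprinted growth and 3 of 9 basement membrane genes. Arterial genes were higher in 1 of 3, with a median log2 ratio of -0.59. At E16 1 cell held 42 of the 62 UMIs of the arterial gene Gja4, and 1 cell 61 of the 81 of Sox17. The arterial direction between the stages thus leans on single E16 cells. Of 1563 measured genes, 219 were at least 2-fold higher at P4 (14%) and 159 lower (10.2%), with a median log2 ratio of 0.05. Eln, which encodes elastin (chromosome 5, 134702593 to 134747323, minus strand), had 51 UMIs in 3 of 11 cells at E16 (476 CPM) and 323 in 16 of 21 at P4 (3872 CPM), 8.13-fold (6.03 to 11.1). Fbln2 had 19 and 143 UMIs, 9.66-fold (5.96 to 16.5), and Fbln5 was 4.24-fold (2.85 to 6.46) higher. Tmem158, a membrane protein induced by Ras, had 6 UMIs in 2 cells and 115 in 11, 24.6-fold (11.0 to 68.4), and Ctsh, a lysosomal protease, 3 in 1 cell and 74 in 11, 31.6-fold. The elastin-high cells held most of this RNA at P4, with 2834 CPM of Tmem158 and 1790 of Ctsh against 27.7 and 0 in Gpihbp1/Rgcc/Aplnr-high cells, and their share of the group was 11 of 21 at P4 and 2 of 11 at E16. A changed mix of cells and a changed level per cell cannot be told apart for these genes. Within the elastin-high cells Eln was at 5628 CPM at E16 and 7782 at P4, Tmem158 at 574 and 2834 and Ctsh at 345 and 1790. Of the 2 E16 cells 1 held 40 of the 49 Eln UMIs, and the 5 Tmem158 and 3 Ctsh UMIs also lay in 1 cell each.

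Surface and adhesion genes were also higher at P4. Leukocyte adhesion and haemostasis genes were higher in 4 of 6 measured, with a median log2 ratio of 1.99, and venous genes in 3 of 3. Icam1, the integrin ligand of leukocytes, had 8 UMIs at E16 and 39 at P4, 6.26-fold (2.88 to 15.5), and at P4 was at similar levels in elastin-high (348 CPM) and Gpihbp1/Rgcc/Aplnr-high cells (415 CPM). Vwf was 9.45-fold higher, or 3.72-fold (1.81 to 8.22) without 1 P4 cell, and Ackr1 3.64-fold. Within elastin-high cells Vwf was at 1263 CPM at E16 and 1989 at P4, or 820 at P4 without 1 cell. Ackr1 there was lower at P4, at 689 and 274 CPM, with all 6 E16 UMIs in 1 cell. A changed mix of cells and a changed level per cell cannot be told apart for Vwf and Ackr1 either. Plvap was 3.51-fold, Procr (the protein C receptor) 4.33-fold and Klf2 2.94-fold higher, in lists of which 4 of 12 and 1 of 12 members were higher. Interferon and antigen presentation genes were higher in 3 of 7, H2-K1, H2-D1 and Ifitm3 by 3.25-fold, 3.19-fold and 3.55-fold, and the same list was higher in 10 of 16 measured in the other cells, with medians of 0.91 and 1.38. Immediate early and heat shock genes, which digestion of live tissue can induce, were higher in 6 of 17 (median 0.86), against 1 of 21 in other cells (median 0.11). Their part in the other differences was not tested.

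Imprinted growth genes, which act on fetal growth from 1 parental copy, were lower at P4 in 7 of 8 measured in endothelial cells, with a median log2 ratio of -2.65 against 0.05 for all measured genes. Igf2, the fetal growth factor (chromosome 7, 142650766 to 142666816, minus strand), had 245 UMIs at E16 (2289 CPM) and 17 at P4 (204 CPM), 0.0890-fold (0.051 to 0.146). Cdkn1c had 258 and 21 UMIs, 0.104-fold (0.0636 to 0.163), and H19, the noncoding RNA of the Igf2 locus, 235 and 27, 0.147-fold (0.0951 to 0.220). Dlk1 (a Notch-like ligand), Meg3 (its noncoding neighbour) and Grb10 (an inhibitor of insulin signalling) were at 0.0939-fold, 0.171-fold and 0.232-fold, with 50.4%, 53.3% and 63.8% of their E16 UMIs in 1 cell (0.177-fold, 0.329-fold and 0.519-fold without it), and the member within 2-fold was Gnas, at 0.733-fold. Igf2 and H19 rested on more cells, with a UMI in each of the 11 E16 cells and in 6 and 9 of the 21 P4 cells. In Gpihbp1/Rgcc/Aplnr-high cells Igf2 stood at 2296 CPM at E16 and 138 at P4, H19 at 2035 and 442 and Cdkn1c at 2201 and 277, and in elastin-high cells Igf2 at 4824 and 298, H19 at 4709 and 274 and Cdkn1c at 919 and 249. Single cells weighed on these levels, with 40 of the 41 elastin-high H19 UMIs of E16 and 13 of the 16 Gpihbp1/Rgcc/Aplnr-high H19 UMIs of P4 in 1 cell.

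Mest, an imprinted enzyme gene of the mesoderm (chromosome 6, 30723547 to 30748465, plus strand), differed less between the stages than Igf2, H19 and Cdkn1c. It had 341 UMIs at E16 and 126 at P4, 0.474-fold (0.383 to 0.583), and 0.680-fold without the deepest cell of each group. In Gpihbp1/Rgcc/Aplnr-high cells its level was 3361 CPM at E16 and 3235 at P4, and in elastin-high cells 3216 and 149, the former from 28 UMIs in 2 cells, of which 27 were in 1. At least 10 UMIs of Mest were in 10 of 11 E16 cells and 4 of 21 P4 cells, and 9 P4 cells held none. In the other kept cells the same list was lower in 2 of 12 measured, with a median of -0.24, and Igf2, H19 and Cdkn1c there were at 1.05-fold, 1.70-fold and 0.810-fold. The fibroblast list was lower at P4 in 6 of 7 measured in endothelial cells (median -2.28), with most of its E16 UMIs in 1 cell (55.1%). Without the 2 collagen-high E16 cells the median of the imprinted list was -2.24, with Igf2 at 0.0821-fold, H19 at 0.152-fold and Cdkn1c at 0.170-fold.

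Basement membrane genes were lower at P4 in 3 of 9 measured and higher in none, with a median of -0.98. Col4a2 was at 0.428-fold, Lamc1 (a laminin chain) at 0.405-fold and Fn1 (fibronectin) at 0.444-fold (57.7% of its E16 UMIs in 1 cell, 0.982-fold without it), and Col4a1 at 0.508-fold fell short of the 2-fold line. Within Gpihbp1/Rgcc/Aplnr-high cells Col4a1 was at 1680 CPM at E16 and 1327 at P4, so that the stages differed less in this pattern than in the group. Itga6, a laminin receptor, had 36 and 5 UMIs (0.178-fold, or 0.286-fold without 1 cell). The transcription factors Sox7 and Meox2 were at 0.473-fold and 0.438-fold, the only lower members among the 12 measured factors, and 73.7% and 80.5% of their E16 UMIs lay in 1 cell, without which they were at 1.49-fold and 1.96-fold. Cell cycle genes were lower in 4 of 13 in endothelial cells (median -0.38) and 11 of 26 in other cells (median -0.91). Glycolysis genes were lower in 1 of 8 in endothelial cells (median -0.25), against 18 of 25 in other cells (median -1.35), a difference between cell groups that was not tested.

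In mural-rule cells a smaller share of the measured genes differed between the stages. Of 1262 measured genes, 126 were at least 2-fold higher at P4 (9.98%) and 105 lower (8.32%), with a median of -0.02, and 29 and 16 among the genes measured without the collagen-high cells. Higher at P4 were Lect1, a cartilage and tendon glycoprotein (20 UMIs in 6 cells against 0, at least 19.7-fold), G0s2, an inhibitor of lipolysis (24 against 8, 8.87-fold, 3.86 to 22.9), Islr, a fibroblast surface protein (6.71-fold, 3.56 to 13.2), and Lum (180 against 208 UMIs, 2.56-fold, 2.09 to 3.14, or 1.62-fold without 1 P4 cell). The chemokine gene Cxcl12 was 3.72-fold higher with all cells and 1.05-fold without the collagen-high cells. Islr and Lum are known from fibroblasts, and collagen-high cells were 75% of the group at P4 and 74.2% at E16. Lower at P4 were the chromatin protein gene Hmgb2 (8 against 133 UMIs, 0.178-fold), the histone gene Hist1h1b (0 against 82, with 48.8% of the E16 UMIs in 1 cell), and Rrm2 (0.235-fold), which makes the building blocks of DNA. Cell cycle genes were lower in 4 of 6 measured, with a median of -1.76. Hmgb2 was 0.148-fold and Rrm2 1.09-fold without the collagen-high cells. No gene of the cell cycle list was measured between the stages there, so few UMIs leave the direction for Rrm2 unsettled.

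Pericyte genes were higher at P4 in 2 of 6 measured and lower in 2, with a median of 0.21. Gucy1a3 had 57 UMIs at E16 and 2 at P4, 0.104-fold (0.0123 to 0.393), and 0.263-fold without the collagen-high cells. In the other cells too Gucy1a3 was 8.82-fold (5.25 to 15.7) higher at E16. Smooth muscle genes were lower in 1 of 10 and higher in none, with a median of -0.26 that became 0.84 without the collagen-high cells. The lower one was Actg2 (18 against 155 UMIs, 0.344-fold), which turned to 1.80-fold without those cells, where all 11 remaining P4 UMIs lay in 1 cell. Imprinted growth genes were lower in 2 of 10 (median -0.16), Igf2 at 0.437-fold and Grb10 at 0.410-fold, while Dlk1 and H19 were at 0.997-fold and 1.10-fold. Imprinted genes thus stood closer between the stages in mural-rule cells than in endothelial cells, a contrast that was not tested. Without the collagen-high mural-rule cells 3 imprinted genes were measured between the stages, with a median of -1.01.

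**Figure D5:**
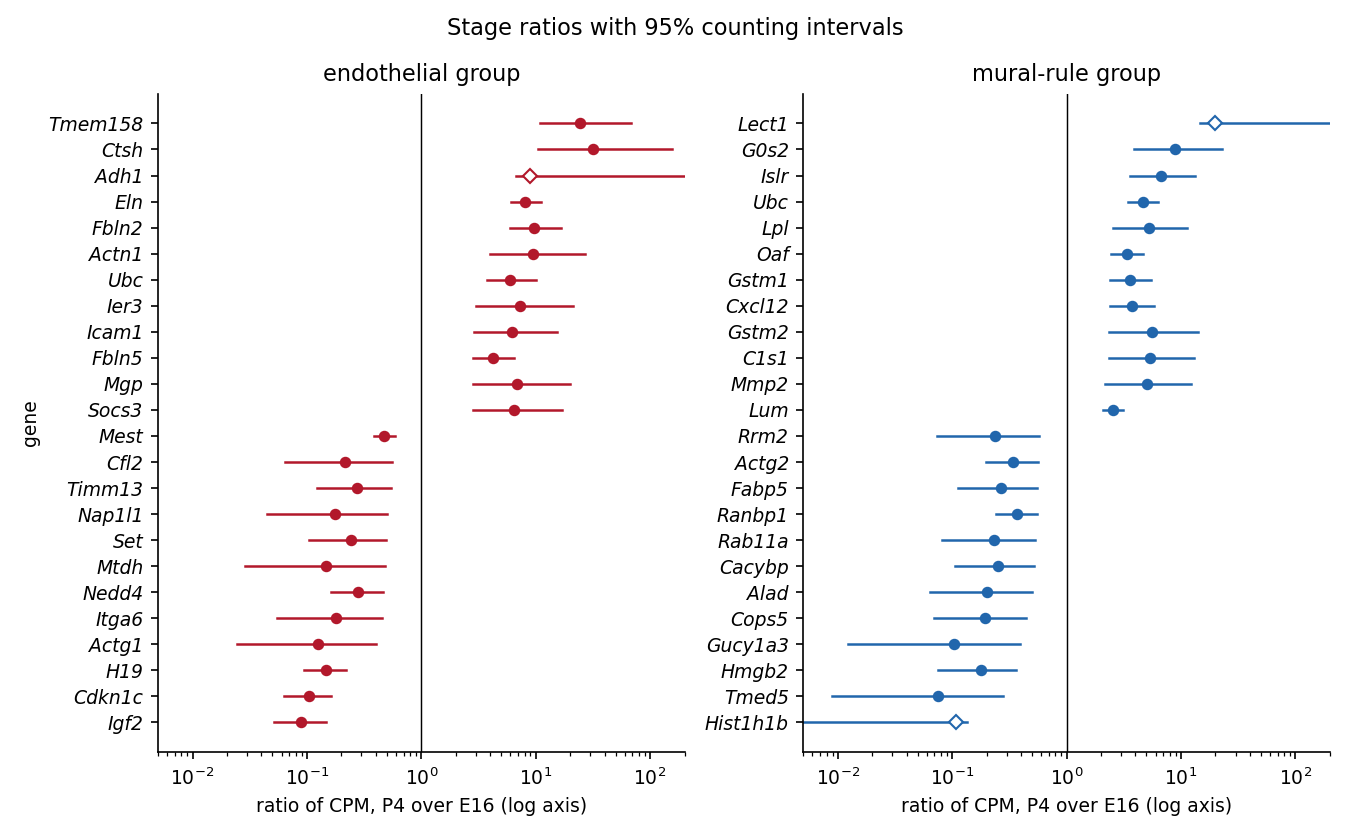
Points give the ratio of CPM at P4 over E16 on a log axis for the genes named in endothelial (left) and mural-rule cells (right), and bars the 95% interval for counting error, clipped at the axis ends. Open diamonds mark genes at 0 in 1 library, set to the floor of 3 counts. Igf2, Cdkn1c and H19 lie between 0.0890 and 0.147 at left.

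Over all 628 kept cells, the genes whose UMIs followed the endothelial sum most closely were Myct1 (Spearman rho 0.43), a surface protein of endothelium, Fabp4 (0.42), Icam2 (0.42) and Ecscr (0.42), followed by Aqp1, Sox18, Tie1, Gpihbp1, Tcf15 and Tm4sf1 (0.39 to 0.36). Those closest to the mural sum were Igfbp7 (0.37), Prrx1 (0.35), a mesenchymal transcription factor, Gucy1a3 (0.35), Rasgrp2 (0.35) and Cygb (0.34), followed by Id3, Bgn, Hopx, Eva1b and Lhfp (0.33 to 0.31). The endothelial set holds endothelial genes throughout, whereas the mural set mixes pericyte genes with the fibroblast genes Prrx1 and Bgn. The cells share 2 libraries and differ in depth, and 9095 genes were compared, so the coefficients are a description.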

How the data were processed

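The authors deposited UMI counts per gene and barcode for 1 library of each stage, in whole numbers that were not normalized, per the file headers. Cell Ranger and the mm10 build were used, per the submitters' processing notes, with no version or setting given in the sources. The platform is 10x Genomics by the title, and Drop-seq by the labels' protocol, barcoded after digestion with Liberase TM and DNase at 37 C. Reads shared by near-identical genes are usually left out by such counting, so close paralogs are uncertain. The files held 437 barcodes at E16 and 687 at P4 and 27775 features, and 39 symbols with several identifiers were kept apart. At least 200 detected genes were found in 259 and 406 barcodes, of which 25 and 12 were left out for haemoglobin.

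UMIs were summed over the cells of a group in a library and divided by the group's total, as CPM. Totals were 107037 and 83422 UMIs in endothelial, 199340 and 67388 in mural-rule and 1230016 and 1755824 in other cells (E16 and P4). Other cells were all remaining kept cells, epithelium included, and each vascular group was left out where the other one was compared with them. Ratios have exact conditional 95% intervals for counting error only, and a 0 was replaced by 3 counts over the group, its floor (28.0 and 36.0 CPM in endothelial, 15.0 and 44.5 CPM in mural-rule cells). With 1 library per stage no test across samples was made. The members and the 31 gene lists (21 of vessel biology, 10 of other cell types) were chosen with earlier results of these data known. Named genes were those with the highest lower bound of the ratio in both libraries (20 for each group against other cells, 10 each way between the groups) or between stages (12 each way), measured and with a UMI in at least 20% of the higher group's cells. Between stages, genes with over 50% of their UMIs in 1 cell of the higher library, or with a higher level in other cells past a set share, were left out. Members of lists, and pattern genes, were named after their values were seen. A result for 1 further gene is not reported here.

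Alternatives changed the minimum sum, the selecting genes, the measuring minimum, the fold, the totals and the cells included. Values without the cell with the most UMIs of a gene in the group with the higher level were added after seeing the data. The scripts were tested on simulated data. Coordinates are from GENCODE M21 (GRCm38). Python 3.11.15, numpy 2.4.6, scipy 1.17.1, pandas 2.3.3 and matplotlib 3.10.9 were used.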

Additional observations from a re-analysis of the deposited data

Results flagged for a closer look

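Among the genes measured between the stages in both vascular groups, the 5 given here moved one way from E16 to P4 in endothelial cells and the opposite way in mural-rule cells, by at least 2-fold each time. The difference between the groups was not tested, and each value comes from 1 library per stage. Dcn, a small proteoglycan of fibroblasts, was at 0.0611-fold in endothelial cells (4 UMIs at P4, 84 at E16) and 2.21-fold in mural-rule cells, Lum, another one, at 0.205-fold and 2.56-fold, and Col3a1, a fibrillar collagen, at 0.265-fold and 2.14-fold. Of their E16 endothelial UMIs, 53.6%, 44% and 59.8% lay in 1 cell. Without the 2 collagen-high E16 endothelial cells, an alternative chosen after seeing the data, Dcn was at 1.07-fold (0.199 to 5.73), Lum at 0.854-fold (0.169 to 3.97) and Col3a1 at 4.06-fold (1.47 to 13.9), on 4, 5 and 5 UMIs at E16, so that none of the 3 was lower at P4 by 2-fold. Dcn and Lum were among the genes by which those 2 cells were set apart, so the fall of their E16 level is given by construction. Itm2a, a membrane protein of mesenchyme, was at 0.203-fold and 2.72-fold, with 97.5% of its 120 E16 endothelial UMIs in 1 cell, and 10.1-fold in endothelial cells without the 2 collagen-high ones. Ghitm, a mitochondrial inner membrane protein, went the other way, at 2.57-fold (24 UMIs against 12, or 2.33-fold without those cells) in endothelial and 0.296-fold (5 against 50) in mural-rule cells.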

How the results depend on the processing

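With 11 to 31 cells in a group and 1 library per stage, depth limits these results to genes with many UMIs, and 1 cell can carry a value. No paired analysis was possible because each stage is a single library with no replicate number. Of 1410 list medians recomputed under the alternatives 1357 moved by less than their spread, 50 moved more and 3 changed sign, and of 2117 ratios of named genes 1844, 265 and 8. These tallies include values that could not move. A minimum of 20 or of 5 UMIs does not enter a gene's ratio, so the 168 ratios under each were unchanged by construction. For counts of genes, values are those at least 2-fold higher, or higher and lower, unless said otherwise. With cells thinned to 1 depth the endothelial share was 2.28% at E16 and the mural-rule share 3.65% and 0.847%. With at least 6 UMIs the mural-rule shares were 6.41% and 2.03%, with 170 and 87 genes against other cells, 95 and 96 for endothelial against mural-rule cells at P4, and 65 and 49 between stages. With at least 2 different selecting genes the E16 share was 8.55%, with 115 genes against other cells at P4, 143 and 137 between the groups at P4 and 69 lower between stages. Without Ndufa4l2 in the sum the shares were 4.27% and 1.27%, with 140 and 66 genes against other cells, 144 and 161 between the groups at E16, 49 and 64 at P4, and 50 and 34 between stages. With a minimum of 20 UMIs, endothelial against other cells gave 145 and 145, mural-rule against other 190 and 94, the groups 128 and 152 at E16 and 103 and 107 at P4, and the stages 93 and 68 in endothelial and 73 and 29 in mural-rule cells. With a minimum of 5 these were 546 and 585, 563 and 352, 547 and 610, 488 and 437, 442 and 374, and 274 and 289. At 3-fold they were 176 and 173, 131 and 81, 166 and 175, 142 higher at P4, 101 and 73, and 62 and 36. The remaining alternatives were chosen after seeing the data. With other cells held to the Epcam and Krt14 limit, mural-rule against other gave 204 and 112. Without collagen-high mural-rule cells they gave 108 and 41, the groups 105 and 139 at E16 and 15 and 38 at P4, and the stages 29 and 16, where fewer genes were measured. Of named genes, Efemp2 against other cells at E16 reversed to 0.872-fold (at least 6 UMIs), 0.517-fold (without Ndufa4l2) and 0.468-fold (without collagen-high cells), and Gsta4, endothelial over mural-rule at E16, to 1.81-fold without Ndufa4l2. Without collagen-high mural-rule cells Col1a1, endothelial over mural-rule at E16, reversed to 2.36-fold, where its fall follows from how those cells were set apart. The stage ratios of Rab11a, Actg2 and Rrm2 reversed to 2.84-fold, 1.80-fold and 1.09-fold. These 3 rest on the few P4 UMIs of the remaining cells, for Actg2 all in 1 cell. The vessel ligand list reversed at E16 to -0.16 against other cells and -1.01 against mural-rule cells without the deepest cell of each group, and the leukocyte adhesion list to -0.20 at E16 with other cells held to the limit. No share left its interval with a minimum sum of 3 UMIs, with 500 detected genes or without the cells that met both rules. No count of genes moved past 1.5 times under these 3 settings, with cells weighted equally or with genes above 1% of UMIs out of the totals. The same held for counts without the deepest cell of each group and without collagen-high endothelial cells. Shares were not recomputed for the settings given for counts alone. The cause of the changes under the other settings was not tested.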
